A study of Mus musculus with 2 samples.

Results

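The lipid-associated program of macrophages was represented by 10 genes (Trem2, Gpnmb, Apoe, Lpl, Fabp4, Fabp5, Cd9, Lgals3, Cd36 and Abca1), which were followed through every cell class of inflamed and control abdominal aortas in a mouse study of Kawasaki disease vasculitis. The 10 genes were set by name, and all 10 were found among the 27998 genes in the files. Macrophages that take up cholesterol and cell debris, in adipose tissue, in atherosclerotic plaques and around dying neurons, switch on a shared set of genes under the lipid-sensing receptor Trem2. Some of the set bring lipid into the cell or carry it inside, others export it, and others sit at the cell surface or in lysosomes. Several are also made by fat cells, capillary endothelium and fibroblasts, so their place in a whole vessel wall is not given by their name.

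The cells came from wild-type C57BL/6J mice given either Lactobacillus casei cell wall extract (LCWE), a bacterial preparation that causes arteritis of the coronary arteries and abdominal aorta, or phosphate-buffered saline (PBS). Both were given into the peritoneum, and the segment between the left renal artery and the aortic bifurcation was taken 2 weeks later. The LCWE library was made from a pool of 7 aortas and held 5091 cells with 42275754 unique molecular identifiers (UMIs, each standing for 1 captured transcript), and the PBS library was made from a pool of 9 aortas and held 5386 cells with 62600808 UMIs. Each group is thus 1 pooled library with no replicate, so nothing could be tested, and ranges in brackets are exact 95% intervals that cover counting error only. A level is given in CPM, the summed UMIs of a gene in a class of 1 library for every 1000000 UMIs of the same cells. In 3′ counting each transcript gives 1 tag, so the level carries no length term. A gene is called higher or lower where the ratio of its levels is at least 2 either way and its interval does not hold 1, for genes with at least 20 UMIs on both sides together.

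Macrophages were the class that the authors named Mac1, with 282 LCWE cells and 5 PBS cells. All 7 macrophage markers (C1qa, C1qb, C1qc, Adgre1, Csf1r, Fcgr1 and Cd68) were detected in the LCWE Mac1 cells, and their levels summed to 6425 CPM, against 1387 CPM in Mono1, the larger monocyte class. The authors' mixed class Mono/Mac/DC, of 22 LCWE cells, had the same 7 markers at 7243 CPM, so they did not set Mac1 apart from it. Mesenchymal stroma joined fibroblasts (813 LCWE and 868 PBS cells), the smooth muscle class VSMC_1 (93 and 4141), the class VSMC_2 that the authors call transitional between smooth muscle and fibroblast (283 and 0) and its proliferating cells (41 and 15). Endothelium was blood (BEC, 239 and 217 cells) and lymphatic (LEC, 88 and 29), as the authors named them. In PBS LEC cells lymphatic markers summed to 7603 CPM, smooth muscle markers to 6572 CPM and 5 capillary endothelium markers to 910 CPM. In LCWE LEC cells the same sums were 5508, 183 and 224 CPM. The capillary markers (Rgcc, Gpihbp1, Car4, Cd300lg and Aqp7) were at 13.2 CPM in PBS and 135 CPM in LCWE BEC cells. LEC is thus not read as lymphatic cells alone. The classes were made by the authors from the same counts, so levels of one class beside another are descriptions. The libraries shared 8 cell barcodes.

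In the LCWE library 7 of the 10 genes were higher in Mac1 macrophages than in mesenchymal stroma and 2 were lower, where 13.3% of the 13130 genes counted were called higher and 27.1% lower. The median of the 10 log2 ratios was 1.70, against -0.23 over those genes. Trem2, Lgals3 and Apoe stood highest over the stroma. Gpnmb and Fabp4 were the lower pair, and Lpl was at nearly the same level on both sides. Against endothelium 5 were higher and 2 lower, where 11.8% of 11146 genes were called higher and 28.9% lower. Trem2, Lgals3 and Apoe were again above the other side, joined by Gpnmb and Lpl, while Fabp4 and Cd36 were below it.

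**Figure D1:**
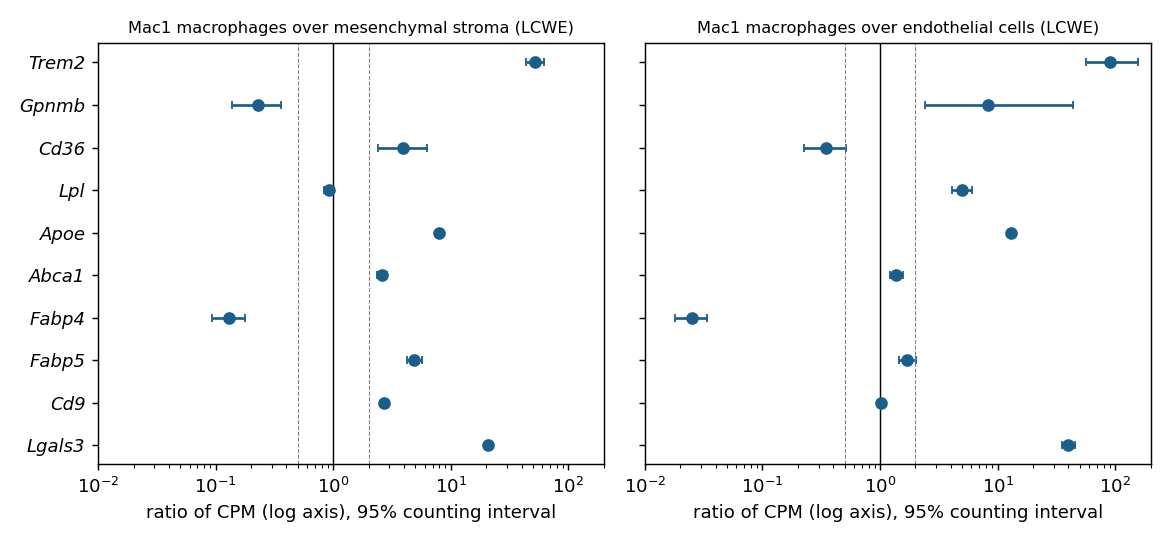
Ratio of CPM in Mac1 macrophages to CPM in mesenchymal stroma (left) and in endothelial cells (right) of the LCWE library for the 10 genes, on a log axis. Bars are 95% counting intervals, the solid line marks equal levels and the dashed lines a 2-fold difference. Trem2 lies farthest to the right in both panels at 51.8 and 90.3, and Fabp4 farthest to the left.

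Trem2 encodes a surface receptor for lipids and lipoproteins that signals through the adaptor Tyrobp, and it lies on chr17:48346401-48354147 (GRCm38, plus strand). It had the highest ratio of the 10 over both stroma and endothelium. It reached 398 CPM (375 to 421; 1177 UMIs in 282 cells) in LCWE Mac1 cells, against 7.68 CPM in LCWE mesenchymal stroma, 51.8-fold (43.3 to 62.3) higher. Mac1 cells held 70.3% (68 to 72.5) of the Trem2 UMIs of the LCWE library, and all monocytes, macrophages and dendritic cells together 89.6%. The next levels were 309 CPM in a class of 22 cells named only Mono/Mac/DC and 85.8 CPM in Mono1, each below the class before it. All other classes were at 13.2 CPM or less. Before thinning, 74.8% of Mac1 cells had a Trem2 UMI, and after thinning each cell to 1500 UMIs 36.9% did, against 0.409% and 0.091% of T cells, natural killer (NK) cells and innate lymphoid cells, which should lack the gene. The median depth was 8775 UMIs in Mac1 and 3986 in those lymphoid cells. In the PBS library there were 12 Trem2 UMIs in all, of which 10 lay in 5 smooth muscle cells, and the 5 PBS Mac1 cells had 0. The genes whose levels were most alike to Trem2 over 29 classes of at least 20 cells, by Pearson correlation of log2(CPM + 1) among 12277 genes, were Ccl9 (0.856), Msr1 (0.848) and Ms4a7 (0.841).

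Gpnmb encodes a transmembrane glycoprotein of lysosomes and melanosomes and lies on chr6:49036546-49070929 (plus strand). It is widely used to mark lipid-laden macrophages, but in these aortas most of its transcripts were in fibroblasts. LCWE Mac1 cells had 19 Gpnmb UMIs in 11 of 282 cells, or 6.42 CPM (3.86 to 10), against 28.0 CPM in LCWE mesenchymal stroma, 4.35-fold (2.76 to 7.29) lower. LCWE fibroblasts had 48.5 CPM (44.3 to 53) and PBS fibroblasts 127 CPM (118 to 136), and these were the highest classes of the series, with all others at 6.42 CPM or less. Fibroblasts held 90.3% of the Gpnmb UMIs of the LCWE library and 97.3% of those of the PBS library. The transcripts were spread over 228 of 813 LCWE fibroblasts and 334 of 868 PBS fibroblasts, with no more than 3.24% of them in any 1 cell. The patterns most alike were those of Ccl11 (0.889), Dpep1 (0.848) and Scara5 (0.848).

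The promoters of Trem2, with most UMIs in macrophages, of Gpnmb, with most in fibroblasts, and of Apoe, with many in both, are shown from 250 bases before to 50 bases after the RefSeq start site (GRCm38.p6). RefSeq promoters were matched for 7 of the 10 genes, and Lpl, Fabp4 and Fabp5 are named only. Capitals mark every match, on either strand, to CACGTG and CATGTG, which factors of the Mitf and Tfe family bind, to GAGGAA, the core of sites for the myeloid factor PU.1, and to AGGTCA, the half-site of nuclear receptors. The first of these was in 7.15% of the 32851 promoters in the table, CATGTG in 14.2%, GAGGAA in 28.3% and AGGTCA in 16.3%. The windows are chr17:48346151-48346450 (plus strand) for Trem2, chr6:49036268-49036567 (plus strand) for Gpnmb and chr7:19699139-19699438 (minus strand), the first of the Apoe start sites listed.
Trem2: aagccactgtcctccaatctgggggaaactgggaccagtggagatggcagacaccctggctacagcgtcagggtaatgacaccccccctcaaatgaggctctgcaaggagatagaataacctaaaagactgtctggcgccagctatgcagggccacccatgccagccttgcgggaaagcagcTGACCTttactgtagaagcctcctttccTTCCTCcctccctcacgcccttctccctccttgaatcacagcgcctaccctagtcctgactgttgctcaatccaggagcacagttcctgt
Gpnmb: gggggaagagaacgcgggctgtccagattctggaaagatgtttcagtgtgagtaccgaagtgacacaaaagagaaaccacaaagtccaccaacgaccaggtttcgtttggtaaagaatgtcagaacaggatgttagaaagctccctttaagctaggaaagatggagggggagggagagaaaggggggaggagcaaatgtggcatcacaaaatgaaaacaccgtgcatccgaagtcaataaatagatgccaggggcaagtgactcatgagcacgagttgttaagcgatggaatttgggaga
Apoe: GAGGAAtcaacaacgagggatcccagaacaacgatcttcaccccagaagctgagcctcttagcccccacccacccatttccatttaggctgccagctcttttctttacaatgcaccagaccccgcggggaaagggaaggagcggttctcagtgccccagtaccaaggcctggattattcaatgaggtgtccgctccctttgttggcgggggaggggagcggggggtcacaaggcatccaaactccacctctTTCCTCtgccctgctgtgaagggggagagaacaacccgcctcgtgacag
The Trem2 window holds TGACCT 68 bases before the start site and TTCCTC 40 bases before it, the Apoe window holds GAGGAA at its first base and TTCCTC 1 base after the start site, and the Gpnmb window holds no match. These are matches of letters, not sites of binding.

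Apoe encodes apolipoprotein E, the lipoprotein that macrophages secrete to carry cholesterol away, and lies on chr7:19696109-19699188 (minus strand). It reached 5675 CPM (5589 to 5761) in LCWE Mac1 cells, against 720 CPM in LCWE mesenchymal stroma, 7.88-fold (7.7 to 8.06) higher, and Mac1 was the highest class of at least 20 cells. The next class was not an immune one. PBS blood endothelial cells had 3015 CPM, ahead of LCWE Mono1 with 2227 CPM. LCWE and PBS fibroblasts followed further down with 1211 and 980 CPM. Mac1 cells held 42.9% of the Apoe UMIs of the LCWE library and fibroblasts 30.9%. The 5 PBS Mac1 cells had 250, 76, 6, 1 and 1 UMIs. The patterns most alike were those of Pltp (0.816), a phospholipid transfer protein, and Epn1 (0.797).

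Abca1 encodes the transporter that passes cholesterol out of the cell to apolipoproteins and lies on chr4:53030787-53159895 (minus strand). Its highest levels were in the class named lymphatic endothelium, with 258 CPM (225 to 293) in LCWE and 244 CPM (197 to 299) in PBS cells. These intervals overlap, but smooth muscle markers summed to 183 CPM in LCWE and 6572 CPM in PBS cells of the class. Their part in the Abca1 level was not tested. LCWE Mac1 cells came next with 168 CPM (154 to 184), against 64.7 CPM in LCWE mesenchymal stroma, 2.60-fold (2.34 to 2.89) higher. Against fibroblasts alone, at 103 CPM, the ratio was 1.63 (1.46 to 1.82) and was not called. Fam63a (0.796), Ralgds (0.785) and Ankfy1 (0.761) followed it most closely over the classes.

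Lpl encodes lipoprotein lipase, which frees fatty acids from circulating triglyceride and acts on the capillary wall after it is secreted. It lies on chr8:68880491-68907448 (plus strand). It was at 166 CPM (152 to 181) in LCWE Mac1 cells, against 182 CPM in LCWE mesenchymal stroma, a ratio of 0.913 (0.829 to 1.0) that was not called. The highest classes of at least 20 cells were LCWE fibroblasts with 314 CPM and PBS fibroblasts with 456 CPM, and fibroblasts held 77.8% of the Lpl UMIs of the LCWE library. In Mac1 the transcripts were uneven, since 95 of 282 cells had any and the highest 29 cells held 68.4% of them. The 5 PBS Mac1 cells had 26, 16, 10, 3 and 0 UMIs. Rab3il1 (0.852), Pdpn (0.824) and Usp2 (0.813) had the most similar levels over the classes.

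Cd36 encodes a scavenger receptor that takes up fatty acids and oxidized lipoproteins and lies on chr5:17781690-17888801 (minus strand). It was sparse in every class, with 270 UMIs among LCWE cells and 57 among PBS cells. LCWE Mac1 cells had 10.8 CPM (7.4 to 15.3; 32 UMIs), against 2.77 CPM in LCWE mesenchymal stroma, 3.91-fold (2.42 to 6.22) higher. Of the 49 stromal UMIs 24 lay in 1 cell, and without the highest cell on each side the levels were 8.83 and 1.41 CPM, 6.24-fold (3.47 to 11.3) higher in Mac1. Endothelium had 31.1 CPM, so Mac1 was 2.88-fold (1.93 to 4.39) lower than that. The highest level was 224 CPM (131 to 359) in Mono2, the smaller monocyte class, from 17 UMIs in 7 of 22 LCWE cells. The patterns most alike were those of Plekho2 (0.775), Smagp (0.736) and Gngt2 (0.735).

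Fabp4 and Fabp5 encode neighbouring fatty acid carriers of the cytoplasm and lie near each other on chromosome 3, at chr3:10204088-10208576 (minus strand) and chr3:10012548-10016607 (plus strand). Their places differed. Fabp4, the carrier of fat cells and capillary endothelium, was at 14.2 CPM (42 UMIs) in LCWE Mac1 cells, against 109 CPM in LCWE mesenchymal stroma, 7.66-fold (5.64 to 10.7) lower, and against 566 CPM in LCWE endothelium, 39.9-fold (29.4 to 55.5) lower. Of the 42 Mac1 UMIs 18 lay in 1 cell, and of the 1924 stromal UMIs 650 lay in another. Without both, the levels were 8.16 and 72.0 CPM, 8.83-fold lower in Mac1. The highest classes were the one named lymphatic endothelium, with 791 CPM in LCWE and 527 CPM in PBS cells, then LCWE blood endothelium with 499 CPM. In the PBS cells of the lymphatic class, smooth muscle markers summed to 6572 CPM and capillary endothelium markers to 910 CPM. Their part in the Fabp4 level was not tested. Many smooth muscle cells carried Fabp4, with a UMI in 60.2% of LCWE and 73.8% of PBS cells. Of the PBS library's Fabp4 UMIs, smooth muscle held 95.7%.

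Fabp5 was at 111 CPM (99.8 to 124) in LCWE Mac1 cells, against 22.9 CPM in LCWE mesenchymal stroma, 4.88-fold (4.2 to 5.65) higher. Its highest levels were in dendritic cells. The authors' class DC3 had 6727 CPM (6489 to 6972), with a UMI in 59 of 59 cells, and held 44.3% of the library's Fabp5 UMIs. DC2 followed with 624 CPM and Mono1 with 269 CPM, both above Mac1. Over the 29 classes Fabp5 was most like Lactb (0.836) and Etv3 (0.827), and Fabp4 was most like Map4k5 (0.812), Oaz2 (0.803) and Lims1 (0.802).

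Cd9 encodes a tetraspanin of the plasma membrane and lies on chr6:125460266-125494791 (minus strand). It was at 1071 CPM (1034 to 1109) in LCWE Mac1 cells, against 399 CPM in LCWE mesenchymal stroma, 2.69-fold (2.58 to 2.80) higher. The class named lymphatic endothelium was above Mac1, with 2144 CPM in the LCWE and 2358 CPM in the PBS library. So were the class that the authors named Eosinophil, PBS blood endothelium and neutrophils, and the Mac1 interval overlapped that of neutrophils. In the class named Eosinophil 5 of 5 neutrophil markers summed to 50926 CPM and 2 of 5 eosinophil markers to 63.1 CPM, so the name is not used here as an identity. Against LCWE endothelium as a whole the ratio was 1.02 (0.977 to 1.07). Its levels were most like those of Zfhx3 (0.872), Grk5 (0.869) and Mtus1 (0.864).

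Lgals3 encodes galectin-3, a sugar-binding protein that macrophages secrete and that coats damaged lysosomes. It lies on chr14:47367751-47386160 (plus strand). It was at 2482 CPM (2426 to 2540) in LCWE Mac1 cells, against 119 CPM in LCWE mesenchymal stroma, 20.9-fold (19.9 to 22) higher. Mono1 followed with 1686 CPM, then the other monocyte and dendritic classes and neutrophils. After thinning, 83.0% of Mac1 and 84.7% of Mono1 cells had an Lgals3 UMI. The patterns most alike were those of Csf1r (0.919), the receptor that keeps macrophages alive, Lilrb4a (0.919) and Plbd1 (0.919).

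**Figure D2:**
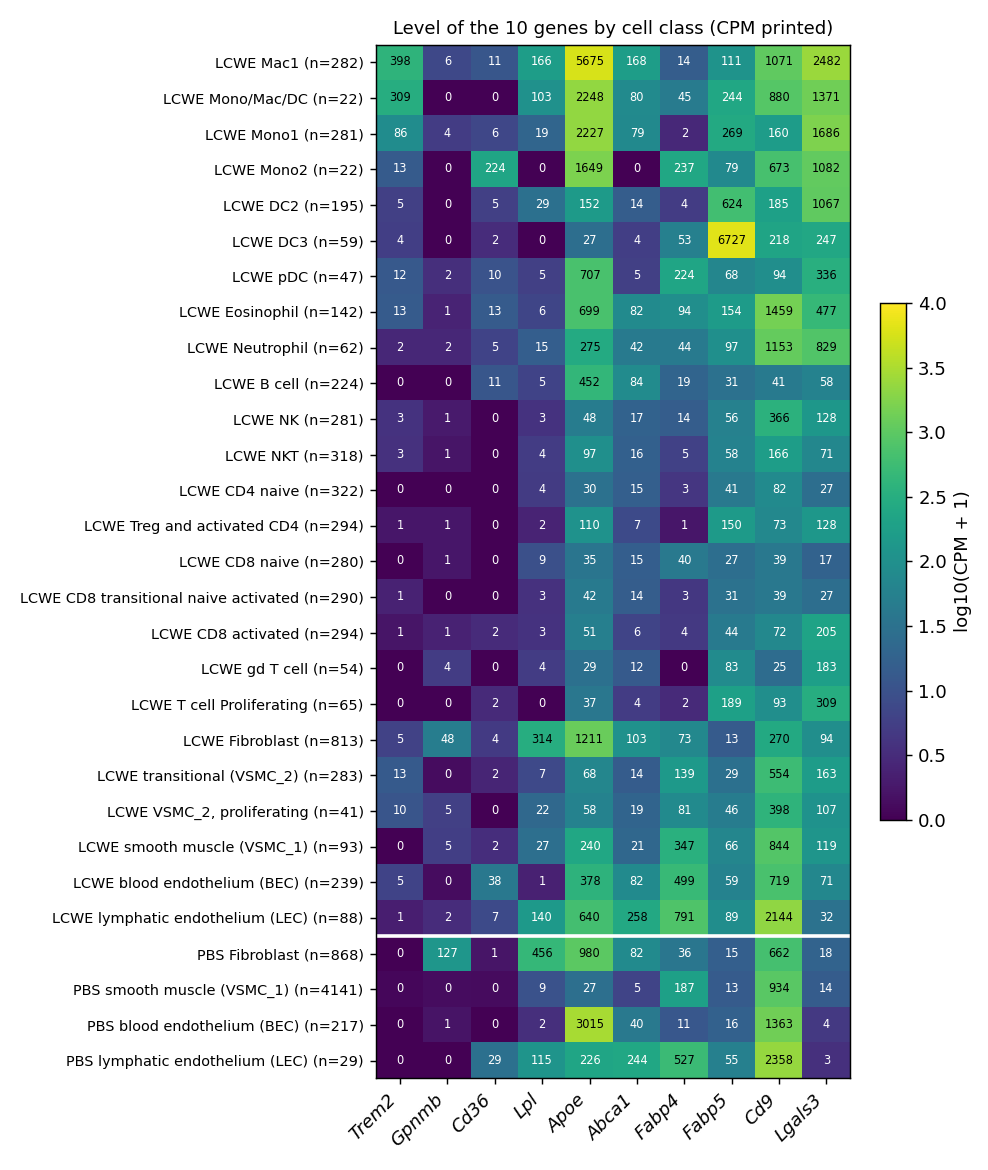
Level of the 10 genes (columns) in each class of at least 20 cells (rows), the LCWE library above the white line and the PBS library below it. Colour is log10(CPM + 1), the printed numbers are CPM and n is the number of cells. Trem2 is bright in Mac1 and the small Mono/Mac/DC class, Gpnmb in the fibroblast rows, Fabp5 in DC3 and Fabp4 in the endothelial and smooth muscle rows.

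Over the 29 classes the Pearson correlations of log2(CPM + 1) between pairs of the 10 genes ran between -0.32 and 0.73. Trem2 and Lgals3 were close (0.72), as were Lpl and Abca1 (0.73), Fabp4 and Cd9 (0.68) and Gpnmb and Lpl (0.65). These are descriptions over classes that share 2 libraries and differ in depth. Within single cells thinned to 1500 UMIs, 30.1% of Mac1 cells carried 4 or more of the 10 genes, against 6.41% of Mono1 cells, 2.34% of LCWE fibroblasts, 2.88% of PBS fibroblasts and 10.2% of LCWE lymphatic endothelial cells. The small LCWE classes Mono/Mac/DC and Mono2, of 22 cells each, stood closer to Mac1, at 22.7% and 18.2%.

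**Figure D3:**
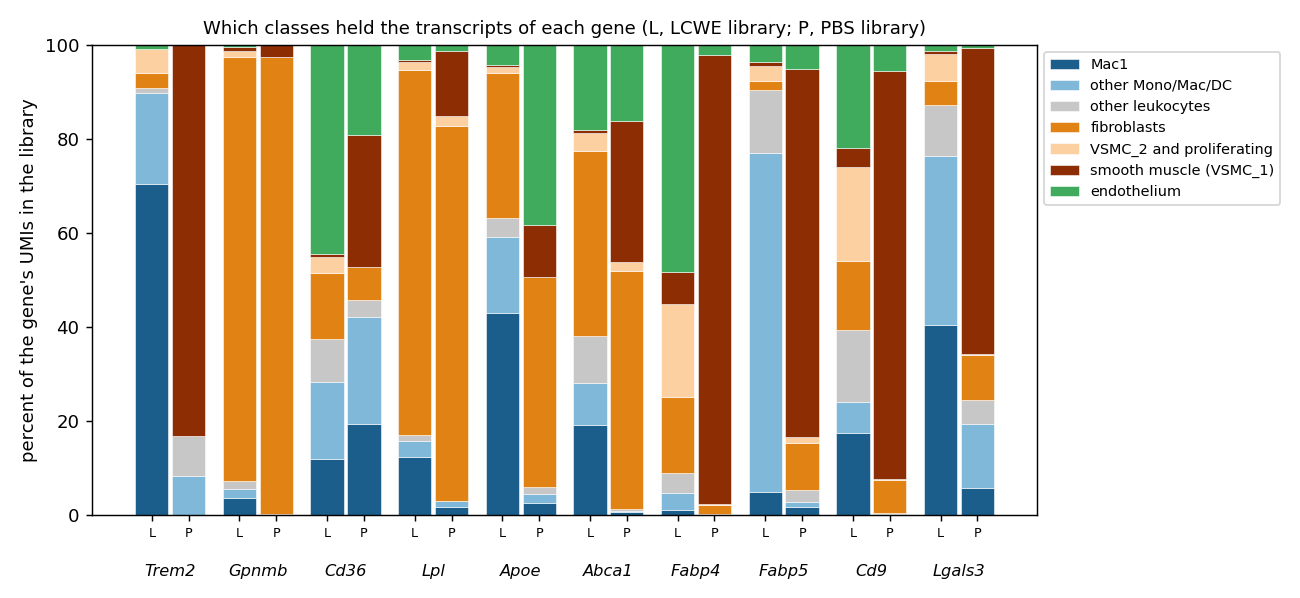
Share of each gene's UMIs (percent) that lay in each group of classes, for the LCWE library (L) and the PBS library (P). Mac1 is the largest block of Trem2 in the LCWE library (70.3%), fibroblasts that of Gpnmb and Lpl in both libraries (90.3% and 77.8% in the LCWE library), and smooth muscle that of Fabp4 in the PBS library (95.7%).

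Mac1 and Mono1 came from the same library, so macrophages could be set beside monocytes of the same aortas. Of the 10 genes, 6 were higher in Mac1 and 1 was lower, where 7.95% of the 9347 genes counted were called higher and 3.99% lower. Lpl was 8.68-fold (6.3 to 12.2) higher, at 166 CPM in Mac1 and 19.1 CPM in Mono1. Cd9 was 6.68-fold (5.97 to 7.48) higher and Trem2 4.63-fold (3.96 to 5.44) higher. Apoe was 2.55-fold and Abca1 2.12-fold higher. Fabp4 was 7.61-fold (2.76 to 29.2) higher from 42 and 4 UMIs. Many of the 42 lay in 1 cell, as given above, and the upper quartile of cells was at 0 CPM in both classes. Fabp5 was 2.41-fold (2.1 to 2.77) lower, at 111 CPM in Mac1 and 269 CPM in Mono1. Lgals3 (ratio 1.47), Cd36 and Gpnmb were not called.

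The Mac1 cells themselves were not uniform. When the 282 LCWE cells were ordered by their Apoe level and cut into 4 groups of 70 or 71 cells, Apoe ran over 37.3, 1138, 5562 and 19601 CPM, which is how the groups were made. Trem2 was at 259, 362, 427 and 594 CPM along that order and Abca1 at 136, 157, 159 and 237 CPM. Lgals3 went the other way, with 3237, 2622, 2190 and 1648 CPM. Cd9 did likewise, with 1653, 1136, 683 and 675 CPM, and so did Lpl, with 259, 165, 124 and 97.1 CPM. Lpl had a UMI in only 33 of the 282 cells after thinning to 1500 UMIs, and its Spearman correlation with Apoe was -0.11. Of the macrophage markers only the complement gene C1qa is given here, at 497, 1399, 2505 and 3060 CPM. The groups are not ranked as macrophages by this 1 gene. Spp1, which encodes osteopontin and accompanies the lipid-associated program, followed no single direction, with 7387, 8503, 2066 and 4315 CPM. The median depth was 10007, 10992, 7511 and 7447 UMIs. In cells thinned to 1500 UMIs, the Spearman correlation of Apoe was -0.34 with both Cd9 and Lgals3, while Cd9 and Lgals3 had 0.40 with each other, over 282 cells of 1 library. Trem2 went with all of these to a like degree, at 0.17 with Apoe, 0.15 with Cd9 and 0.17 with Lgals3. In Mono1 cells Apoe had -0.22 with Lgals3 and -0.06 with Cd9.

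**Figure D4:**
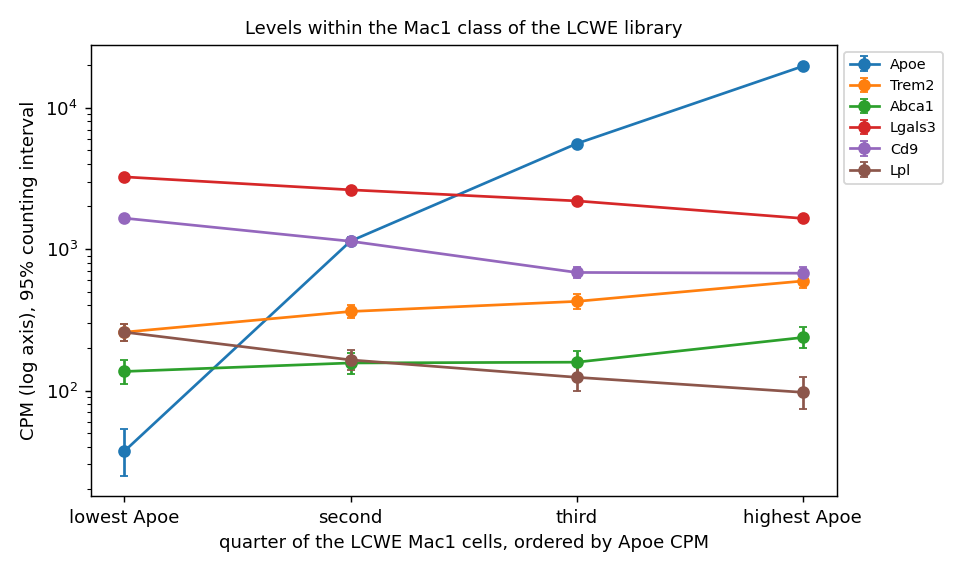
Level (CPM, log axis) of 6 genes in 4 groups of the 282 LCWE Mac1 cells ordered by Apoe, with 95% counting intervals. Apoe differs by construction. Trem2 and Abca1 are higher in the group with the most Apoe (594 and 237 CPM), and Lgals3, Cd9 and Lpl are lower there (1648, 675 and 97.1 CPM).

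Genes that work beside the 10 were counted from lists written by hand. Of the Trem2 signalling list, 7 of 8 members counted were higher in LCWE Mac1 cells than in LCWE mesenchymal stroma and 0 were lower, where 13.3% of all genes counted were called higher and 27.1% lower. The adaptor Tyrobp had 2276 and 111 CPM, 20.6-fold (19.5 to 21.6) higher. Ms4a7 was 169-fold (131 to 222) higher and the phosphatase Inpp5d 15-fold higher. Of the proteases that can shed Trem2, Adam17 was 2.23-fold higher, while Adam10, with 94.3 and 65.2 CPM, was not called. Of the lysosomal and other companions of the program, 9 of 17 were higher and 2 lower. The cathepsin Ctss, with 2157 and 47.3 CPM, was 45.6-fold higher, the integrin Itgax 27.7-fold higher, and the tetraspanin Cd63 2.86-fold lower, with 327 and 936 CPM. Spp1 was at 5842 CPM in Mac1 and 3167 CPM in the stroma, a ratio of 1.84 that was not called, and VSMC_2 alone had 8219 CPM.

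Of the cholesterol list, 8 of 17 members were higher in LCWE Mac1 cells and 2 lower. For this and the next lists, too, 13.3% of all genes counted were called higher and 27.1% lower. The scavenger receptor Msr1 (117 and 2.03 CPM) was 57.5-fold and the exporter Abcg1 (95.6 and 4.91 CPM) 19.5-fold higher. The lipoprotein receptor Lrp1 (280 and 646 CPM) and the lipid-synthesis regulator Srebf1 (13.2 and 29.9 CPM) were lower, and Npc2 (924 and 644 CPM), a lysosomal cholesterol carrier, was not called. Of the fatty acid list, 7 of 13 were higher and 3 lower. Plin2, which coats lipid droplets, had 320 and 33.5 CPM and was 9.54-fold higher, Lipe was 3.55-fold higher, and the lipase Mgll had 2 UMIs in Mac1 against 1367 in the stroma. Of the resident macrophage list, 4 of 6 were higher and 1 lower. Pf4 (179 and 1.75 CPM) and Mrc1 (48.0 and 1.02 CPM) were 102-fold and 47.2-fold higher, while Timd4 had 1 UMI and Cd163 0 UMIs in Mac1. The medians of the 5 lists were log2 ratios of 3.21, 1.05, 0.92, 1.02 and 4.09 in the order given, against -0.23 over all 13130 genes.

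The PBS library held too few macrophages for a ratio, so the libraries were compared in stroma, endothelium and lymphoid cells. In fibroblasts 4 of the 10 genes were higher in the LCWE library and 2 lower, where 9.91% of 12357 genes were called higher and 7.08% lower. Gpnmb was at 48.5 CPM in LCWE and 127 CPM in PBS fibroblasts, 2.61-fold (2.33 to 2.93) lower. Cd9 was at 270 CPM in LCWE and 662 CPM in PBS fibroblasts, 2.45-fold (2.33 to 2.58) lower. LCWE fibroblasts were deeper, with a median of 11494 UMIs against 6215. Counted per cell, Gpnmb had 0.595 UMIs in LCWE and 0.888 in PBS fibroblasts, and Cd9 had 3.32 and 4.64, both under a 2-fold difference. Lpl (314 and 456 CPM), Apoe (1211 and 980 CPM), Abca1 (103 and 81.5 CPM) and Fabp5 (13 and 15.1 CPM) were not called. The median log2 ratio of the 10 genes was 0.32, against 0.04 over all genes counted. Of the 5 lists, Trem2 signalling had 7 of 8 members higher and 0 lower in LCWE fibroblasts, the companions 3 of 17 higher and 0 lower, the cholesterol list 2 of 17 higher and 1 lower, the fatty acid list 1 of 13 higher and 1 lower, and the resident macrophage list 2 of 4 higher and 2 lower. Spp1 was 12.3-fold (9.43 to 16.4) higher, at 115 CPM in LCWE and 9.37 CPM in PBS fibroblasts, while Plin2, with a ratio of 1.74 (1.42 to 2.15), and Psap (982 and 1006 CPM) were not called. In LCWE T, NK and innate lymphoid cells Spp1 was at 72.5 CPM, and the PBS lymphoid cells had 0 Spp1 UMIs. Tyrobp, of the Trem2 signalling list, was at 343 CPM in the LCWE lymphoid cells.

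Of the genes that were higher in LCWE fibroblasts, Lgals3 had 94.3 CPM in LCWE and 17.6 CPM in PBS fibroblasts, 5.37-fold (4.39 to 6.62) higher. In the LCWE library T, NK and innate lymphoid cells as a whole had 109 CPM and naive CD8 T cells 17.0 CPM, and the LCWE fibroblasts lay between these. After thinning, 8.61% of LCWE fibroblasts had an Lgals3 UMI, against 9.78% of the lymphoid cells and 2.86% of the naive CD8 T cells, so the share in LCWE fibroblasts was not above that of lymphoid cells as a whole but was above that of the naive cells. Lgals3 was still called higher after the UMIs per lymphoid cell were taken off. Trem2 had 52 UMIs in 31 of 813 LCWE fibroblasts and 0 UMIs in PBS fibroblasts, at least 10.6-fold higher against a floor of 3 UMIs over the class. The share of LCWE fibroblasts with a Trem2 UMI was 3.81%, and 0.246% after thinning, against 0.409% and 0.091% in the lymphoid cells. The macrophage markers moved with these values. All 7 were detected in LCWE fibroblasts and summed to 101 CPM, against 2 of 7 and 21.9 CPM in PBS fibroblasts, where C1qa, C1qb, C1qc, Adgre1 and Fcgr1 were at 0. Tyrobp was at 144 and 0.493 CPM, 5 of 5 neutrophil markers summed to 363 and 2.96 CPM, and haemoglobin genes to 1252 and 61.0 CPM, in LCWE and PBS fibroblasts. Their part in the Trem2, Lgals3 and Spp1 values and in those of the Trem2 signalling list was not tested.

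The higher Fabp4 and Cd36 of LCWE fibroblasts rested on 1 cell. Fabp4 was at 72.9 CPM in LCWE and 35.7 CPM in PBS fibroblasts, a ratio of 2.04 (1.75 to 2.39), but 650 of the 728 LCWE UMIs lay in 1 cell and 90 of the 217 PBS UMIs in another. The LCWE cell also held 24 of the 38 Cd36 UMIs, 175 Lpl UMIs, 83 of the fat cell hormone gene Adipoq, 24 of Plin1, 43 of Cidec and 532 of Car3, with 1 of the collagen gene Col1a1. Without the highest cell on each side, Fabp4 was at 7.83 CPM in LCWE and 20.9 CPM in PBS fibroblasts, 2.67-fold lower, and Cd36, which had been 5.79-fold (2.08 to 22.3) higher from 38 and 4 UMIs, had fewer than 20 UMIs left.

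LCWE fibroblasts could also be split by Chl1, an adhesion molecule gene with a UMI in 481 of 813 LCWE fibroblasts and 0 of 868 PBS fibroblasts. Gpnmb was at 29.9 CPM (26 to 34.3) in LCWE cells with a Chl1 UMI and 91.8 CPM (81.2 to 103) in LCWE cells without one, against 127 CPM in PBS fibroblasts. Cd9 was at 206 and 419 CPM in the same LCWE cells, against 662 CPM in PBS fibroblasts. Lpl (301 and 343 CPM) and Abca1 (100 and 109 CPM) differed little. Cells with a Chl1 UMI were deeper, with a median of 14431 UMIs against 7502.5. Without the Chl1 cells, neither Gpnmb nor Cd9 reached a 2-fold difference between the libraries, Fabp4 was called lower with 6.01 CPM in LCWE and 35.7 CPM in PBS fibroblasts, and Trem2 had 9 UMIs left in LCWE fibroblasts. Of the 217 Fabp4 UMIs of PBS fibroblasts, 90 lay in 1 cell and 49 in another, and both cells were kept in this setting. The LCWE cell with 650 Fabp4 UMIs was among the Chl1 cells left out, which held 710 in all.

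In endothelium 4 genes were higher in the LCWE library and 1 lower of the 8 with enough UMIs, where 9.14% of 10925 genes were called higher and 5.35% lower. Lymphatic cells were 88 of 327 endothelial cells in the LCWE and 29 of 246 in the PBS library, so blood endothelial cells are given alone. There 5 genes were higher and 1 lower of 7, where 10.7% of 10319 genes were called higher and 6.02% lower. Fabp4 had 1485 UMIs and 499 CPM in LCWE, against 19 UMIs and 11.4 CPM in PBS blood endothelial cells, 43.8-fold (27.9 to 73) higher. The PBS cells of the lymphatic class, which stand outside this ratio, held capillary endothelium markers at 910 CPM, against 13.2 CPM in PBS blood endothelial cells. The ratio is thus not one for all PBS endothelium. The cells with a Fabp4 UMI were 73 of 239, 30.5% (24.8 to 36.8), in LCWE and 10 of 217, 4.61% (2.23 to 8.31), in PBS blood endothelium. After thinning they were 20.5% and 1.38%, while T, NK and innate lymphoid cells stood after the same thinning at 0.91% in the LCWE and 1.33% in the PBS library. The PBS share of blood endothelium has an interval of 0.286% to 3.99%, which holds 1.33%. The PBS lymphoid share comes from 75 cells and cannot tell expression from background. The PBS share of blood endothelium is therefore read as neither, and the 43.8-fold ratio rests on 19 UMIs in PBS cells. Smooth muscle markers summed to 1810 CPM in LCWE and 709 CPM in PBS blood endothelial cells and T and NK cell markers to 117 and 6.60 CPM, and their part in the Fabp4 values was not tested. Blood endothelial cells were deeper in the LCWE library, with a median of 10121 UMIs against 5846. Cd36 had 114 UMIs in LCWE and 0 in PBS blood endothelial cells, at least 21.3-fold higher against the floor.

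Fabp4 and Cd36 lay in the same LCWE blood endothelial cells. All 114 Cd36 UMIs were in the 73 cells with a Fabp4 UMI, of which 32 had any, and the other 166 cells had 0, which allows up to 1.69 CPM. Fabp5 was at 121 CPM (98.4 to 148) in the cells with Fabp4 and 35.7 CPM (28.3 to 44.6) in the others, and Abca1 at 137 and 62.8 CPM. Gpihbp1, the capillary anchor of lipoprotein lipase, was at 102 and 11.0 CPM and Rgcc at 223 and 33.0 CPM. Vwf, typical of larger vessels, was at 875 CPM (811 to 943) in the cells with Fabp4 and 1374 CPM (1325 to 1424) in the others. The lymphatic gene Prox1 was at 30.4 and 3.21 CPM. The median depth was 8261 and 10756 UMIs.

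Apoe was the gene that was lower. It was at 378 CPM (356 to 401) in LCWE and 3015 CPM (2932 to 3099) in PBS blood endothelial cells, 7.97-fold (7.47 to 8.51) lower, with a UMI in 28.0% and 66.4% of cells after thinning. Cells with and without a Fabp4 UMI did not differ much in it, with 342 and 391 CPM in the LCWE library. Cd9 was at 719 and 1363 CPM, a ratio of 0.528 (0.497 to 0.56) that was not called. Lgals3 was at 71.3 and 3.60 CPM, 19.8-fold (8.95 to 54.6) higher, Fabp5 3.61-fold (2.4 to 5.64) and Abca1 2.05-fold (1.56 to 2.73) higher. In LCWE blood endothelial cells 7 of 7 macrophage markers summed to 59.5 CPM and 5 of 5 neutrophil markers to 189 CPM, against 2 of 7 and 6.00 CPM and 4 of 5 and 7.20 CPM in the PBS library, where C1qa, C1qb, C1qc, Adgre1 and Fcgr1 were at 0. Haemoglobin genes summed to 5232 and 69.6 CPM in LCWE and PBS cells. The Lgals3 UMIs were in 36 LCWE cells, 5.02% of cells after thinning against 9.78% of the lymphoid cells. That share was below that of lymphoid cells as a whole but above that of naive CD8 T cells. The Lgals3 level is therefore not assigned to endothelial cells, and the part of these markers in it was not tested. Of the other lists, 4 of 11 fatty acid genes were higher and 1 lower in LCWE blood endothelium. Among all genes counted there, 10.7% were called higher and 6.02% lower. Gpihbp1, with 105 and 0 UMIs, was at least 19.6-fold higher in blood endothelium. Over blood and lymphatic endothelium together it was called lower, with 181 UMIs and 46.9 CPM in LCWE and 208 UMIs and 102 CPM in PBS cells. Of the cholesterol list 3 of 15 were higher and 1 lower. The lower gene was Pltp, with 49.1 CPM in LCWE and 155 CPM in PBS cells.

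**Figure D5:**
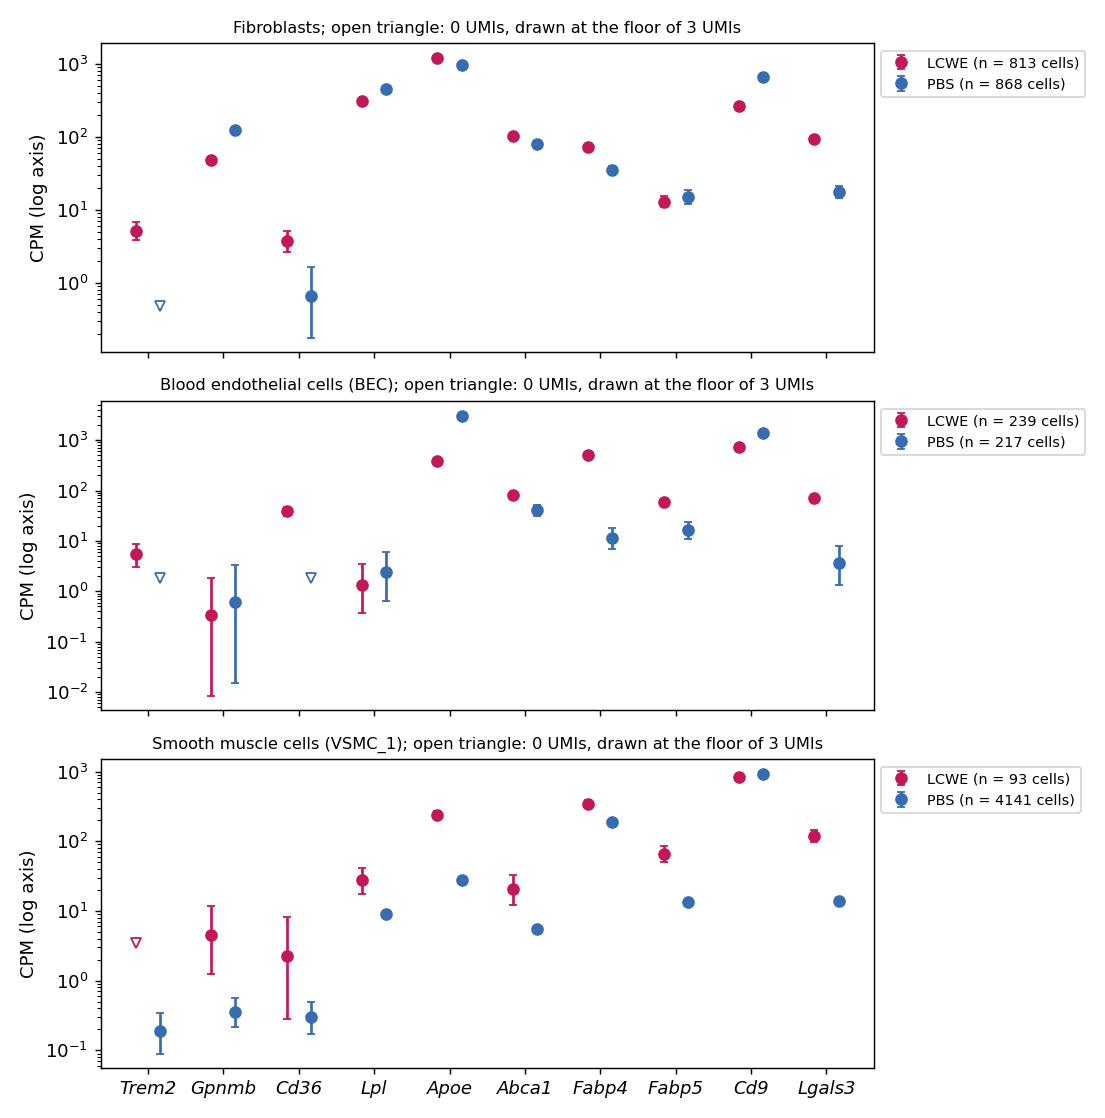
Level (CPM, log axis) of the 10 genes in fibroblasts, blood endothelial cells and smooth muscle cells, LCWE left of PBS for each gene. Bars are 95% counting intervals and open triangles mark 0 UMIs, drawn at a floor of 3 UMIs. In blood endothelium Fabp4 is at 499 CPM in LCWE and 11.4 CPM in PBS cells and Apoe at 378 and 3015 CPM, while in fibroblasts Gpnmb and Cd9 are lower in LCWE.

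Smooth muscle cells were few in the LCWE library, 93 against 4141 in the PBS library. Of the 8 genes with enough UMIs, 6 were higher in LCWE smooth muscle and 0 were lower, where 8.42% of 12817 genes were called higher and 2.59% lower. Apoe was at 240 CPM in LCWE and 27.4 CPM in PBS cells, 8.77-fold (7.55 to 10.1) higher. Lgals3 was at 119 and 13.7 CPM, 8.70-fold higher. After thinning, 10.8% of LCWE smooth muscle cells had an Lgals3 UMI, against 9.78% of LCWE lymphoid cells as a whole and a lower share of naive CD8 T cells. The Lgals3 level is therefore not assigned to smooth muscle, and its source was not tested. Lpl was at 27.5 and 9.01 CPM, 3.05-fold higher, and Abca1 at 20.6 and 5.50 CPM, 3.75-fold higher. Gpnmb was 12.9-fold (3.19 to 38.8) higher from 4 UMIs in LCWE and 19 in PBS cells. Fabp5 was 5.0-fold higher, but 40 of its 58 LCWE UMIs were in 1 cell, and without the highest cells the ratio was 1.57 (0.927 to 2.51) and was not called. The carrier that smooth muscle makes in quantity, Fabp4, was at 347 and 187 CPM, a ratio of 1.85 that was not called. Its median cell went the other way, at 105 CPM in LCWE and 135 CPM in PBS smooth muscle. The highest LCWE cell was at 15353 CPM. Cd9 was at 844 and 934 CPM. Trem2 had 0 UMIs in LCWE smooth muscle, which allows up to 4.22 CPM. Macrophage markers summed to 90.4 CPM (6 of 7, Adgre1 at 0) in LCWE and 2.13 CPM (5 of 7, Adgre1 and Fcgr1 at 0) in PBS smooth muscle. Haemoglobin genes summed to 1365 and 44.0 CPM, neutrophil markers to 264 and 2.81 CPM and T and NK cell markers to 145 and 0.58 CPM, and the part of these in the 6 genes called higher was not tested.

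In T, NK and innate lymphoid cells, 2198 in the LCWE and 75 in the PBS library, 0 of the 7 genes with enough UMIs were higher and 1 was lower, where 1.86% of 10602 genes were called higher and 3.87% lower. That gene was Apoe, with 56.9 CPM in LCWE and 256 CPM in PBS cells, 4.49-fold (3.61 to 5.54) lower, and in the PBS library its 104 UMIs lay in 6 cells.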

How the data were processed

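The 10 genes, the gene lists, the comparisons and the alternatives were chosen with earlier results of these data known. The authors deposited raw UMI counts per gene and cell, made from 10x Genomics 3′ libraries (V3 chemistry) with Cell Ranger 3.0.2 against mm10, per the submitters' processing notes and the labels. They also deposited a table with each cell's library, class and percent of mitochondrial UMIs. Every listed cell is marked by the authors as neither dead nor a doublet, and no further doublet caller was run. The joint counts were compared with the tables of the single libraries, and 0 entries differed.

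From the counts, CPM was computed for each class of each library from summed UMIs, with exact Poisson intervals for levels, Clopper-Pearson intervals for shares and conditional binomial intervals for ratios (Python 3.11.15, numpy 2.4.6, scipy 1.17.1, pandas 2.3.3). A sum under 3 UMIs was raised to a floor of 3 for calls. The method was tested on simulated counts. All 10 genes were described. Of each list, up to 4 members with the most UMIs in Mac1 and the 2 most extreme ratios in each direction could be named, and genes outside this rule (Timd4, Cd163 and Chl1, for example) were chosen after their values were seen. A marker of the macrophage list, left out of its sums, and some genes of like pattern are not reported here. Gene positions are from GENCODE vM21 and promoters from RefSeq. The alternatives were other depth scalings, filters on cells, subtraction of the UMIs per lymphoid cell and other class groupings. With 1 library per group, library, pool and treatment cannot be told apart.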

Additional observations from a re-analysis of the deposited data

How the results depend on the processing

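Over the alternatives tried, 85 counts of genes called stayed within 1.5 times the value in the report, and the 5 that did not were all for LCWE over PBS fibroblasts. Of the values of single genes, 300 stayed within their counting interval, 147 moved past it and 3 ratios that had been called changed sign. In that comparison the 2 genes called lower became 1 with the mean over cells of each cell's CPM, 0 with UMIs per cell and 1 in fibroblasts without a Chl1 UMI. The 4 called higher became 1 in fibroblasts without a Chl1 UMI and 2 without the highest cell of each side, a setting added after the data were seen. The Fabp4 log2 ratio in fibroblasts, 1.03, turned to -0.25 with the mean over cells of each cell's CPM, -2.57 without the Chl1 cells and -1.42 without the highest cells. After the UMIs per lymphoid cell were taken off every class, 3 genes were called higher in fibroblasts, and Fabp4 was no longer called. The setting without the highest cells left out the 1 LCWE cell that held most of the UMIs. The setting without the Chl1 cells left out the same cell. LCWE fibroblasts with a Chl1 UMI held 710 Fabp4 UMIs and those without one 18. In the other settings the cause was not tested. No paired analysis was possible because each group is 1 pooled library. Small sums of UMIs limit Cd36 and Gpnmb in macrophages. The number of cells limits every gene in the 5 PBS Mac1 cells, whose median depth was 8812 UMIs, against 8775 in LCWE Mac1 cells.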

Other observations

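The 5 Mac1 cells of the PBS library held 0 UMIs of Trem2, Gpnmb and Fabp4. Their Lgals3 UMIs were 47, 9, 5, 2 and 1, and their Cd36 UMIs were 5, 5, 1, 0 and 0. In the LCWE library 3 of 47 plasmacytoid dendritic cells held all 93 Fabp4 UMIs of that class, and 7 of 22 Mono2 cells held its 17 Cd36 UMIs.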
